A study of Mus musculus with 15 samples.

Results

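Diphenyl iodonium (DPI) alone was compared with no treatment in a mouse dendritic cell line, across all genes on the array. The fold changes compare 6 of the 15 arrays of the series, the 3 labelled DPI and the 3 labelled non-treated. The spread behind the p-values was estimated from all 15 arrays. All 45037 probe sets other than the array's own controls entered, and 12701 named genes were bright enough to be tested. The cells are a dendritic cell line made from epidermis of A/J mice, taken at the newborn stage, so every group shares that single inbred background. The other 9 arrays held cells given dinitrofluorobenzene (DNFB, a contact allergen), hydrogen peroxide (H2O2), or DPI together with DNFB, 3 arrays each. The series describes DPI only as a ROS inhibitor (an inhibitor of reactive oxygen species), and its text speaks of vehicle where the labels of the controls say non-treated, so whether the controls received a solvent is not given. The labels also leave out the doses and how long the cells were exposed. Whether replicate arrays stand for independent cultures is not stated, and if they do not, the p-values reflect technical spread alone.

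DPI is best known as an inhibitor of the phagocyte NADPH oxidase, the enzyme that passes electrons from NADPH to oxygen to make superoxide. It reacts with flavin-containing enzymes in general, among them nitric oxide synthases, xanthine oxidase, the reductases of the cytochrome P450 system and complex I of the mitochondrial respiratory chain. Dendritic cells take up antigen and present it to T cells, and on contact with allergens they mature, which includes raising costimulatory ligands such as CD80, CD86 and CD40.

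Signals are the array's linear brightness values in arbitrary units, rescaled to the same 2% trimmed mean of 500 on every array. The deposited values had a trimmed mean of 250 on replicate 1 of both groups and of 500 on replicates 2 and 3. Fold changes are on the scale of log2(signal + 15), which understates the change of dim genes, and a gene passed at an adjusted p below 0.05 (limma, Benjamini-Hochberg over 12701 genes). Values after ± are standard errors of the fit, with n = 3 arrays a group. For beta-actin the 3' probe set over the 5' one, a ratio that rises as RNA degrades, was 1.25 on each non-treated array and 1.34, 1.19 and 1.33 on the DPI arrays. With that ratio as a covariate 4176 genes passed, against 4035 without it.

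Of the dendritic cell markers some were bright in both groups and others dim. The MHC class II chain H2-Aa had a mean signal of 34500 without treatment and 38810 with DPI, its invariant chain Cd74 28080 and 33410, the leukocyte antigen Ptprc 12350 and 10990, and the integrin Itgax 3081 and 2762. The receptor Flt3 read 49.7 to 153 over the 6 arrays and the lectin Cd209a 124 to 177. Langerin (Cd207), which defines Langerhans cells, was dim at 124 without treatment and fell to 31.9 (log2 -1.57). Of 31 Langerhans and dendritic cell markers, 3 rose and 8 fell, where 13.3% of all tested genes rose and 18.4% fell. The median log2 change of these markers, 0.04, turned to -0.08 under quantile normalization and to -0.11 under cyclic loess. Their summed signal ran from 223300 to 233000 on the non-treated arrays and from 184500 to 208600 on the DPI arrays.

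Markers of other cells the epidermis could contribute were mostly dim. Of 16 keratinocyte markers 5 were bright enough to test and 0 passed (1 did without non-treated replicate 1). Keratins Krt10 and Krt15 stayed below a signal of 30 on every array of both groups, while Krt5 reached 156, Itgb4 231 and Lor 237. Cdh1 was the brightest keratinocyte marker, at 743 to 1494. The summed signal of the 15 keratinocyte markers on the array was 1763 to 2060 without treatment and 1613 to 2353 with DPI. Of 8 tested fibroblast markers only Sparc passed, from 71.1 to 156, and it no longer passed without non-treated replicate 2, non-treated replicate 3, DPI replicate 1 or DPI replicate 2. The summed signal of all 17 fibroblast markers on the array, 55460 to 61030 without treatment and 45430 to 56920 with DPI, came mostly from Vim and S100a4. Among 6 tested T cell markers Cd2 fell (815 to 358), and the summed signal of all 11 on the array was 3548 to 4194 against 3106 to 3271. The T cell receptor chains Cd3d, Cd3e and Cd3g were at or below 77.5 on every array. Brighter members were Cd28, at 1107 to 1622 over the 6 arrays, Cd5, at 590 to 897, and Cd8a, at 163 to 292. Without DPI replicate 1 a T cell marker besides Cd2 fell. The 11 mast cell markers summed to 3501 to 4151 without treatment and 2391 to 2503 with DPI. Kit fell from 1761 to 757 and Hpgds from 1394 to 747, and the defining receptor chain Fcer1a was below 30 on all 6 arrays. Kit was also the only 1 of 7 tested melanocyte markers that passed, and the sum over all 10 on the array was 3117 to 3554 against 2235 to 2759. Without non-treated replicate 1 or DPI replicate 2 another melanocyte marker passed as higher. The part of other cell types in the results was not tested.

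Many genes differed between DPI and no treatment. Of the 12701 tested, 1694 were higher with DPI (13.3%) and 2341 were lower (18.4%), which makes 4035 or 31.8%. Changes of at least 2-fold were found for 425 of the higher and 755 of the lower genes. The median over all genes was -0.007 on the log2 scale. In 46.2% of genes, passing or not, the 3 DPI arrays did not overlap the 3 non-treated arrays. Within the arrays scaled to 500, with 2 arrays a group, 2558 genes passed. Within those scaled to 250, with 1 array in each of both groups and the spread taken from the DNFB pair, 2326 passed. The share that changed differed with brightness: with genes split into 4 equal bands by their non-treated signal, 6.8% of the dimmest band were higher and 1.35% lower, and of the brightest band 21.2% and 24.8%. The non-treated signal is 1 side of the comparison, and genes entered by their mean over all 15 arrays. A gene dim without treatment also has little room to fall, so the balance of directions in the dimmest band gives no result of its own.

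**Figure D1:**
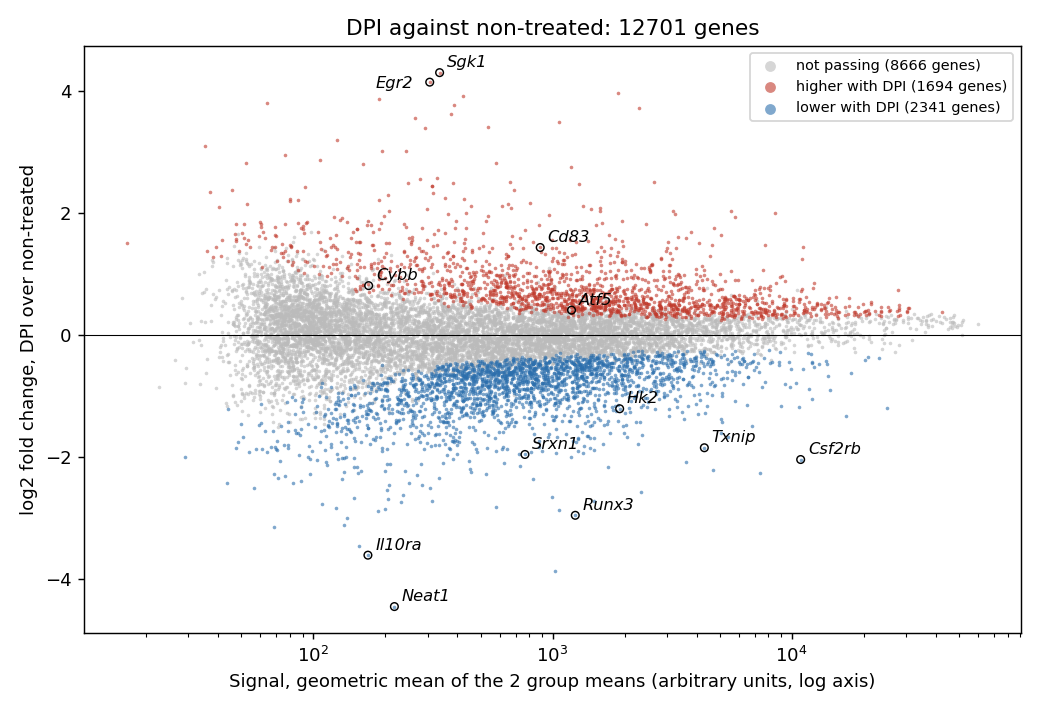
Each point is 1 of 12701 genes, with the geometric mean of the mean signals of both groups on a log axis (x) and the log2 fold change of DPI over non-treated (y). Red genes (1694) passed as higher, blue genes (2341) as lower and grey genes did not pass; Sgk1 and Egr2 lie at the top and Neat1 and Il10ra at the bottom, and falls are densest among genes of middle brightness.

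The steepest rise was that of Sgk1, the serum and glucocorticoid-regulated kinase, which acts downstream of PI3-kinase beside AKT. Its signal was 67.7, 98.6 and 48.7 on the non-treated arrays and 1351, 1829 and 1779 on the DPI arrays, a 19.6-fold rise (log2 4.29 ± 0.232, adjusted p = 1.18e-10). Next came Egr2, a zinc finger transcription factor induced within minutes of a stimulus, at 63.3, 67.1 and 68.6 without treatment and 1641, 1393 and 1242 with DPI (17.6-fold, adjusted p = 8.64e-11). The related factor Egr1 rose 15.5-fold, the orphan nuclear receptor Nr4a3 15-fold and the AP-1 subunit Fos 13.1-fold. For Egr1 the non-treated arrays spread widely, at 952, 522 and 202, and all DPI arrays lay between 6830 and 8527.

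Others among the 12 largest rises were the polo-like kinase Plk2 (14.5-fold), the CDK5 activator Cdk5r1 (13.9-fold), the RNA poly(A) polymerase Tent5c (13.6-fold), the stress gene Gadd45b (12.3-fold), Abtb2 (11.7-fold), the inducible chaperone Hspa1b (11.2-fold) and the chemokine Ccl3 (10.6-fold). The 12 were taken from genes whose groups did not overlap. As a mean over its probe sets the log2 change of Gadd45b was 2.58 in place of 3.62. For Cdk5r1 it was 1.80 in place of 3.80, another of its probe sets had the opposite sign without passing, and its non-treated arrays read 15.3, 15.5 and 5.06, near or below the pseudocount. Hspa1b has a near-identical copy, Hspa1a, and probe sets may not tell them apart. Plk2 read 56.5, 96.9 and 9.21 without treatment, and its log2 change of 3.86 was 3.23 without non-treated replicate 3.

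The largest fall was that of Neat1, a long non-coding RNA that builds nuclear paraspeckles. It read 1263, 1159 and 1150 on the non-treated arrays and 61.3, 11.6 and 66.7 on the DPI arrays, 21.9-fold lower (log2 -4.45 ± 0.447, adjusted p = 3.36e-07). Fam43a fell from 4052, 4029 and 4025 to 162, 353 and 312 (14.6-fold lower). Il10ra, the ligand-binding chain of the interleukin-10 receptor, fell from 876, 677 and 532 to 11.3, 118 and 37.7 (12.2-fold lower). The log2 change of Il10ra, -3.61, was -4.22 without DPI replicate 2. Another probe set of Neat1 had a log2 difference of -0.26 and another of Il10ra one of -0.17, neither of which passed, and as means over probe sets the changes were -2.36 for Neat1 and -1.89 for Il10ra. Several of these DPI values lie near the pseudocount, where the fold is drawn toward 1.

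The nucleotide receptor P2ry6 was 11.1-fold lower, the cadherin Celsr1 8.89-fold, the zinc finger gene Zfp799 8.71-fold, Meak7 7.98-fold (log2 -3.65 without DPI replicate 2), Ccnq 7.43-fold, the chemokine receptor Ccr1 7.31-fold, Champ1 7.20-fold and the glycosyltransferase A4galt 7.17-fold. Runx3, a transcription factor needed for Langerhans cells to form, was measured tightly: 3385, 3593 and 3592 without treatment and 445, 514 and 372 with DPI (7.78-fold lower, log2 -2.96 ± 0.133, adjusted p = 3.36e-11). These 12 were likewise taken from genes whose groups did not overlap. As a mean over its probe sets the log2 change of Champ1 was -2.01 in place of -2.85.

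**Figure D2:**
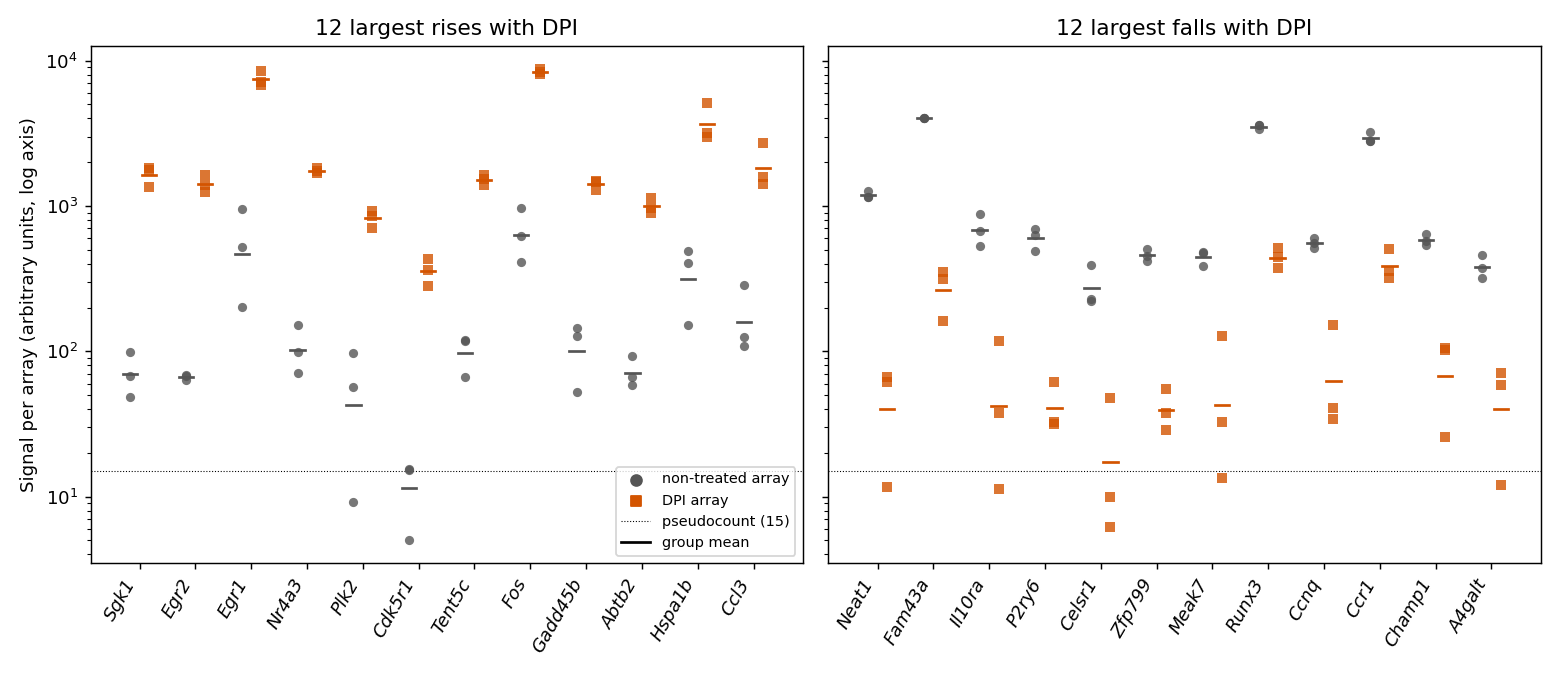
Signal on each of the 6 arrays (log axis, arbitrary units) for the 12 largest rises and the 12 largest falls with DPI; grey circles are non-treated arrays, orange squares DPI arrays, short lines group means and the dotted line the pseudocount of 15. The genes were chosen among those whose groups do not overlap, and some DPI arrays of Neat1, Il10ra, Celsr1, Meak7 and A4galt reach values below the pseudocount.

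Immediate early genes are transcribed from ready-made promoters within minutes of a growth factor or stress signal, and feedback genes of the same list shut the signal off again. Of 49 tested, 30 rose, 7 fell and 12 did not pass, with a median of 0.72 on the log2 scale against -0.007 over all genes. Of all genes 13.3% rose. This list, like the others, was chosen with earlier results of these data known. Egr2, Egr1, Nr4a3, Fos and Gadd45b led the list, and Klf9, a factor that answers to glucocorticoids and oxidative stress, rose from 2316, 2230 and 1863 to 7225, 6002 and 7327 (3.19-fold). The members did not all move one way. Myc, the driver of growth and ribosome production, fell from 6126, 5313 and 5842 to 845, 1068 and 954 (5.97-fold lower, adjusted p = 6.03e-11). The promoter of Egr2, the most induced member, is shown here because it holds the binding sequence of the serum response factor, the CArG box (in capitals). The window is the 250 bases before the RefSeq start on the plus strand of GRCm38.p6, chr10:67537680-67537929, and the box lies 133 to 124 bases before the start. Of the 5 windows listed for Egr2, the one shown is the most downstream that holds a CArG box.
Egr2: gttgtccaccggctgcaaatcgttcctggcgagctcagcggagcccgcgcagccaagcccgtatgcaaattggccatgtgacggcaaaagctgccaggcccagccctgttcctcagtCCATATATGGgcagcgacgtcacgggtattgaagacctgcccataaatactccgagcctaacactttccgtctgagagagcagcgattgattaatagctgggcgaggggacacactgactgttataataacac
On either strand, 1.47% of 32851 RefSeq promoter windows of that length hold a CArG box. That share is per window, whereas a list member was counted once if any of its windows held the box. The other sequences searched below were counted the same way. Among the rising members with a window it was found in 2 of 24 (Egr2 and Dusp5), among the falling ones in 0 of 5, and among those that did not pass in 1 of 10 (Zfp36).

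Receptors for growth factors and cytokines moved one way. Of 29 tested, 15 fell, none rose and 14 did not pass, against 18.4% of all genes that fell; the median was -0.53. The shared beta chain of the receptors for GM-CSF, interleukin-3 and interleukin-5, Csf2rb, went from 22140, 21940 and 22460 to 5023, 5510 and 5569 (4.13-fold lower, log2 -2.05 ± 0.116). Its mouse-specific relative Csf2rb2 was 4.24-fold lower, and because the sequences are closely alike the probe sets may share signal. Tgfbr2, which binds TGF-beta, fell from 6109, 5820 and 5796 to 2724, 2993 and 2360 (2.20-fold). Il10ra has been given above. GM-CSF and TGF-beta are the factors that dendritic and Langerhans cells are grown in.

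Transcription factors in the dendritic cell marker list differed among themselves, and those named here were picked after their values were seen. Batf3 (log2 0.11), Irf4 (-0.08) and Zbtb46 (-0.42) did not pass, and Irf8 fell (-0.46). Besides Runx3, the master factor of myeloid cells Spi1 (PU.1) went from 5434, 4826 and 4426 to 2214, 2050 and 1608 (2.50-fold lower, adjusted p = 1e-05). Id2, which blocks E proteins and is needed for Langerhans cells, went from 38050, 35490 and 41030 to 15370, 18390 and 16090 (2.30-fold lower). In each of them every DPI array lay below every non-treated array. Fewer cells of a type and less RNA per cell cannot be told apart in these bulk samples.

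FOXO transcription factors are held in the cytoplasm by AKT and SGK1. In a list of FOXO-linked genes and SGK1, 14 of 39 rose, 5 fell and 20 did not pass, with a median of 0.41. Over all genes 13.3% rose and 18.4% fell, as for the next lists. Sgk1, the steepest riser, and Klf9 are members, and the list was chosen with earlier results of these data known. These counts are therefore not independent of the values given above. Besides Sgk1 and Klf9, the death-promoting BCL2 relative Bcl2l11 (BIM) rose from 1680, 1768 and 1476 to 6182, 5431 and 8061 (3.93-fold). Txnip, a glucose-responsive gene whose protein binds thioredoxin and limits glucose uptake, fell from 8644, 9177 and 6991 to 2432, 2282 and 2093 (3.61-fold lower, log2 -1.85 ± 0.141). In the BCL2 family, which sets the threshold of apoptosis, 5 of 16 rose and 5 fell. Bcl2l11 and Pmaip1 (NOXA, 3.98-fold), both death-promoting, rose, as did Bcl2l13 (2.51-fold), while Bmf, also death-promoting, was 2.51-fold lower. p53 targets split as well, with 9 of 25 up, among them the cell cycle inhibitor Cdkn1a (2.44-fold), and 4 down, among them the p53 inhibitor Mdm4 (3.34-fold lower; another of its probe sets had the opposite sign, and the mean over them did not pass).

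The phagocyte NADPH oxidase is the enzyme best known as a target of DPI. Of 7 tested genes of that enzyme none rose and 1 fell, against 13.3% and 18.4% of all genes. The member that fell was the regulatory subunit Ncf4, from 12650, 12720 and 11930 to 7181, 7101 and 6901 (1.76-fold lower, adjusted p = 3.2e-06). The catalytic subunit Cybb was dim and scattered, at 84.7, 135 and 172 without treatment and 98.8, 351 and 341 with DPI, and the groups overlapped (log2 0.80 ± 0.527, adjusted p = 0.276). Replicate 1 was its lowest array in each of the 5 groups. Cybb did pass as higher with the replicate number as a block and within the arrays scaled to 500, so its call depends on the model. Its partner Cyba was bright, at 16950, 14750 and 14390 against 20870, 17680 and 17960, with a log2 difference of 0.29 ± 0.113 that did not pass (adjusted p = 0.0548), but passed without non-treated replicate 1 (log2 0.37). The organiser Ncf1 had a log2 difference of -0.06 ± 0.126 on its brightest probe set (adjusted p = 0.782). Its other probe sets read -0.52 (adjusted p = 0.0231) and -0.47 (adjusted p = 0.0508), and their mean with the first passed as lower (log2 -0.35). Across 28 genes of flavoenzymes 5 rose and 3 fell, where 13.3% and 18.4% of all genes did. Xanthine dehydrogenase, Xdh, rose 1.69-fold, the acyl-CoA dehydrogenase Acadl 1.28-fold and the reductase Cyb5r4 1.38-fold, while methionine synthase reductase Mtrr was 1.49-fold lower. Leaving out non-treated replicate 2 or 3 or DPI replicate 2 left 5 passing members in place of 8 in this flavoenzyme list.

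NRF2 is the transcription factor that raises antioxidant and glutathione genes when its inhibitor KEAP1 is modified by oxidants or electrophiles. Of 32 tested genes of that list, 4 rose, 10 fell and 18 did not pass, with a median of -0.03. Sulfiredoxin, Srxn1, which repairs oxidised peroxiredoxins, fell most: from 1532, 1621 and 1457 to 399, 466 and 302 (3.90-fold lower, log2 -1.96 ± 0.129, adjusted p = 2.04e-09). Osgin1, an oxidative stress growth inhibitor, fell from 609, 638 and 925 to 119, 237 and 285 (3.36-fold lower). The modifier subunit of glutamate-cysteine ligase, Gclm, fell from 4556, 3585 and 4227 to 1942, 1427 and 1983 (2.31-fold lower). In these genes all DPI arrays lay below all non-treated ones. Keap1 itself was 1.85-fold lower (adjusted p = 8.02e-05). The 4 risers, named after their values were seen, were Gclc, the catalytic partner of Gclm (log2 0.74), the carbonyl reductase Cbr3 (1.01), Gstp1 (0.40) and Taldo1 (0.32). Hmox1, the heme oxygenase often used as a readout of this pathway, read 1166, 1268 and 932 without treatment and 1158, 1167 and 906 with DPI, a difference of -0.06 ± 0.276 (adjusted p = 0.905). Nqo1 was dim and did not pass (log2 -0.96 ± 0.55, adjusted p = 0.208), nor did Sqstm1 (0.28 ± 0.12, adjusted p = 0.0836). Without DPI replicate 1 the list had 3 up and 6 down. The Srxn1 promoter is shown because it holds an antioxidant response element of the form TGANTCAGC (capitals), 45 to 37 bases before the start (chr2:152105274-152105523, plus strand, GRCm38.p6, RefSeq).
Srxn1: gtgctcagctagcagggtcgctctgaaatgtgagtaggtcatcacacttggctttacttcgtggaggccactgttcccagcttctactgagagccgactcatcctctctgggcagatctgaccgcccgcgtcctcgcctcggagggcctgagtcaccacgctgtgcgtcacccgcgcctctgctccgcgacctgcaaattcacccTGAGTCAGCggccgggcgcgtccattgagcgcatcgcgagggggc
Every TGANTCAGC also contains the letters of an AP-1 site, TGANTCA. Searched on both strands, 1.02% of the promoter windows hold it. It occurred in 2 of 9 falling members with a window (Srxn1 and Osgin1), in 1 of 3 rising ones (Gstp1) and in 0 of 16 of the others.

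Other antioxidant enzymes were higher more often than lower, with 5 of 19 up and 1 down. The glutaredoxin Glrx stood out, from 391, 291 and 248 to 1442, 1344 and 1402 (4.41-fold, adjusted p = 2.9e-08). The selenoproteins Selenow (1.41-fold), Gpx4 (1.37-fold) and Gpx1 (1.27-fold) rose less; each of them lost its call without at least 1 of the arrays. Without non-treated replicate 2 the list had 2 up and 1 down, and without non-treated replicate 3 or DPI replicate 1 it had 3 up and 0 down.

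ATF4 is the transcription factor of the integrated stress response, which answers to amino acid shortage and to stress of the endoplasmic reticulum or the mitochondria. Of 48 tested targets and regulators, 21 rose, 6 fell and 21 did not pass (median 0.28). Ppp1r15a (GADD34), which ends that response, rose from 409, 249 and 200 to 1924, 1452 and 1532 (5.68-fold). Atf3 went from 72.2, 156 and 83.8 to 714, 537 and 625 (5.59-fold), and Cth, which makes cysteine, from 161, 114 and 117 to 876, 760 and 668 (5.39-fold). The amino acid transporter Slc7a5 rose 2.20-fold and the factor Ddit3 (CHOP) 2.45-fold. The transcript of Atf4 itself was lower, at 5118, 3544 and 4178 against 2968, 3427 and 2819 (log2 -0.47 ± 0.123, adjusted p = 0.00652; log2 -0.33 and adjusted p = 0.0516 without non-treated replicate 1). A member known to answer to both ATF4 and NRF2, the cystine transporter Slc7a11, fell by 0.89 on the log2 scale; it was singled out after its value was seen. The promoters of Atf3, which rose, and Slc7a11, which fell, are shown together because both hold the ATF4 composite sequence TTGCATCA (capitals, on either strand; minus strand genes of GRCm38.p6, RefSeq). The windows are chr1:191183334-191183583 for Atf3, with a match 110 to 103 bases before the start, and chr3:50443614-50443863 for Slc7a11, with matches at 66 to 59 and at 47 to 40.
Atf3: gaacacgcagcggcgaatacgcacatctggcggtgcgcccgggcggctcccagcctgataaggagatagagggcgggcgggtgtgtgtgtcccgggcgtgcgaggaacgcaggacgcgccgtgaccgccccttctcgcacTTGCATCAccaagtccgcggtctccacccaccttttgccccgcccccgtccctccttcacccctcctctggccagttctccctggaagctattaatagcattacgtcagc
Slc7a11: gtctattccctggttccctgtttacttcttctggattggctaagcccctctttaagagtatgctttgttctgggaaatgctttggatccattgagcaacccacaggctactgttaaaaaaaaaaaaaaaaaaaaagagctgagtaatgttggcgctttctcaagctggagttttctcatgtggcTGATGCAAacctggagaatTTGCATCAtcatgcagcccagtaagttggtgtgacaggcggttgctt
TTGCATCA occurs in 0.791% of all windows, and in this list in 2 of 16 rising, 2 of 6 falling and 4 of 17 other members with a window. In these promoters the sequence did not overlap a CArG box or TGANTCAGC.

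Genes of the endoplasmic reticulum's unfolded protein response had 8 of 30 up and 3 down, against 13.3% and 18.4% of all genes. Dnajb9, a chaperone of the lumen, rose from 1007, 1264 and 1093 to 6348, 6768 and 6026 (5.65-fold), and the stress sensor Atf6 rose 2.15-fold. Xbp1, the factor activated by splicing in that response, fell from 8919, 11060 and 9368 to 2501, 3926 and 2866 (3.19-fold lower), and Derl2, which exports misfolded proteins, was 1.98-fold lower. Among cytosolic heat shock chaperones 7 of 23 rose and 1 fell, with Dnajb4 2.06-fold, St13 1.66-fold and Stip1 1.48-fold higher beside Hspa1b. Another probe set of Dnajb4 had the opposite sign without passing. Without non-treated replicate 3 or DPI replicate 1 the heat shock chaperones had 4 up and 1 down.

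Nuclear genes of the respiratory chain were higher by small amounts. Of 34 genes of respiratory complex I, 15 rose and none fell (median 0.28), and of 37 genes in the list respiratory complexes II to V, 22 rose and none fell (median 0.35). The complex I subunit Ndufb3 went from 4431, 3993 and 4432 to 6945, 6124 and 6264 (1.5-fold). Ndufb6, Ndufa2 and Ndufs5 rose 1.49-, 1.45- and 1.44-fold. In complex III Uqcrh went from 8122, 8512 and 8459 to 13020, 11270 and 12560 (1.47-fold) and Uqcrq rose 1.51-fold; Sdhc of complex II rose 1.42-fold and Atp5h of the ATP synthase 1.42-fold. The counts of respiratory complex I and of respiratory complexes II to V depended on the normalization, at 9 and 10 up under quantile and 8 and 9 up under cyclic loess, with medians of 0.17 to 0.20. For the second list the counts were 11, 12, 12 and 13 up without non-treated replicate 2, non-treated replicate 3, DPI replicate 1 and DPI replicate 3 respectively.

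The mitochondrial ribosome, which makes the subunits encoded in mitochondrial DNA, showed the other direction. Of 73 tested mitochondrial ribosomal proteins 26 fell, 8 rose and 39 did not pass (median -0.15). Mrps2 fell from 2185, 2040 and 1838 to 576, 663 and 693 (3.09-fold lower), and Mrpl19 and Mrpl17 were 2.45- and 2.27-fold lower, although another probe set of Mrpl19 went the other way without passing. Mrps6 rose from 1824, 1763 and 1897 to 5308, 4359 and 5179 (2.68-fold). Of 20 genes of mitochondrial stress and chaperones 4 rose and 3 fell, near the 13.3% and 18.4% of all genes, with Gabpa, a transcriptional activator of respiratory genes, 1.89-fold and the DNA helicase Twnk 1.91-fold higher, and the proteases Htra2 and Clpp 2.32- and 1.78-fold lower. In the tricarboxylic acid cycle 7 of 24 rose and 3 fell. The cytosolic NADP-dependent isocitrate dehydrogenase Idh1 rose from 1042, 1206 and 1332 to 4030, 2990 and 2956 (2.75-fold) and citrate synthase Cs 1.39-fold, while Ogdh (1.62-fold) and Dlst (1.37-fold), subunits of the 2-oxoglutarate dehydrogenase complex, were lower. Ogdh and Dlst each had another probe set of opposite sign that did not pass. Without non-treated replicate 2 or DPI replicate 3 that list had 4 up and 2 down.

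Glycolysis and hypoxia genes had 20 of 40 up and 5 down (median 0.39). Slc2a3, a glucose transporter, went from 8161, 6896 and 5459 to 22000, 15350 and 18130 (2.71-fold), and the lactate transporter Slc16a1 from 7876, 6778 and 6895 to 17060, 15380 and 18390 (2.36-fold). Ndrg1, a gene raised by hypoxia and iron depletion, rose 4.06-fold. Against that direction hexokinase Hk2, which takes the first step of glycolysis, fell from 3454, 3012 and 2381 to 1439, 1224 and 1107 (2.32-fold lower). Genes that supply NADPH rose in 7 of 16 cases and fell in 1, including the mitochondrial transhydrogenase Nnt (1.72-fold), Mthfd2 (1.68-fold) and Shmt2 (1.5-fold); without DPI replicate 1, 5 rose and none fell.

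Sterol and fatty acid synthesis had 13 of 37 up and none down (median 0.28). Fdps, which makes farnesyl pyrophosphate, rose from 2572, 2214 and 2549 to 6828, 6968 and 6946 (2.82-fold), Idi1 2.38-fold, the desaturase Scd1 1.79-fold and the citrate lyase Acly 1.69-fold. Of 44 genes for lysosomes and autophagy 22 rose and 1 fell (median 0.33). The protease cathepsin L, Ctsl, rose from 2838, 2154 and 2774 to 9660, 7231 and 9299 (3.36-fold), the autophagy conjugation gene Atg12 2.67-fold (log2 1.42, and 0.61 as a mean over its probe sets), the cargo receptor Tax1bp1 2.11-fold and the proton pump subunit Atp6v1a 1.89-fold. Within the arrays scaled to 250, 1 a group, 7 genes of this lysosome and autophagy list rose and 2 fell.

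**Figure D3:**
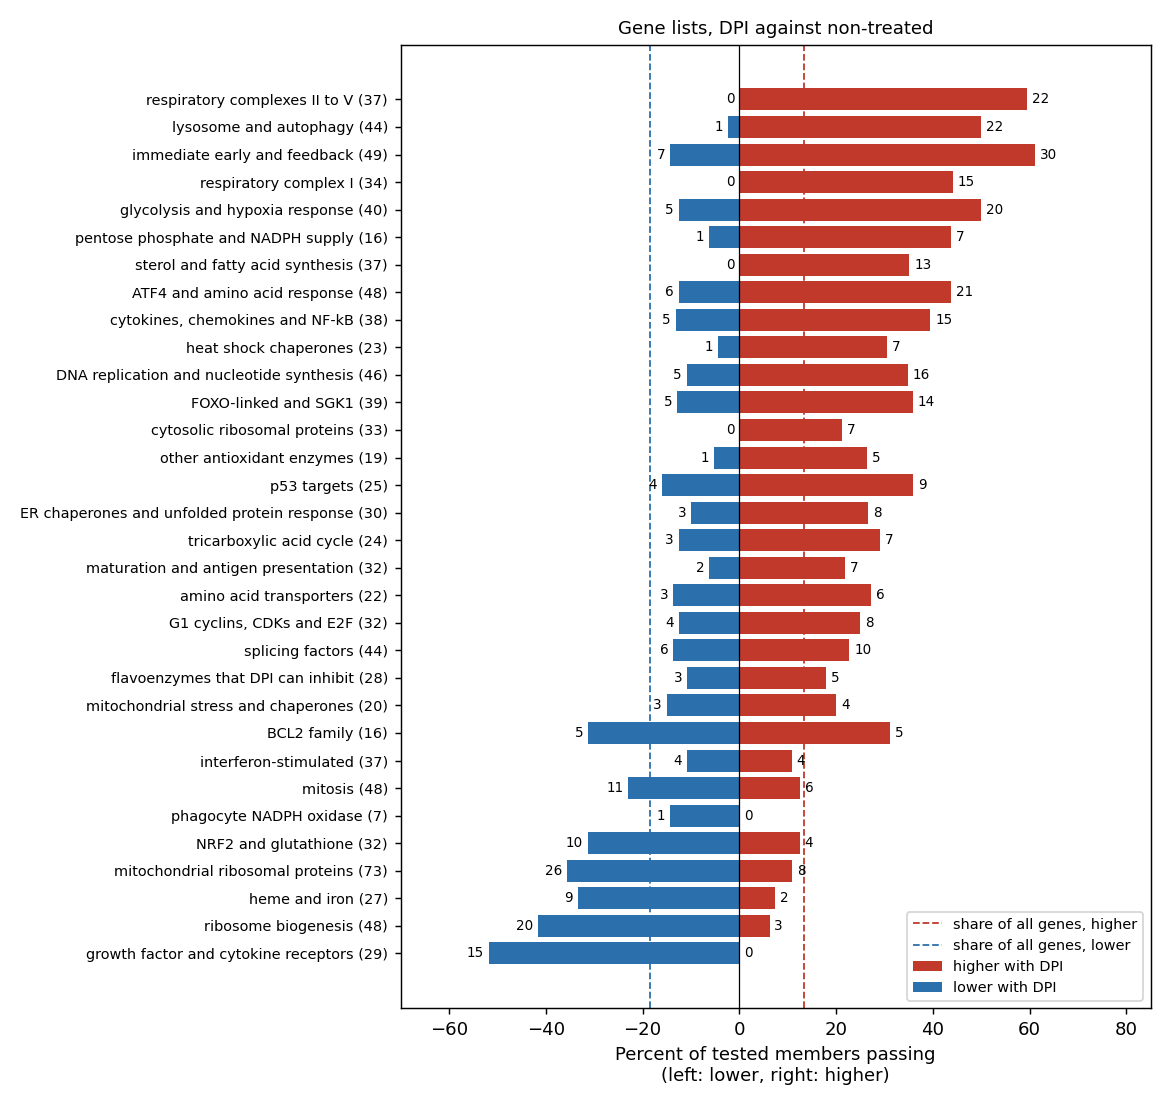
Share of the tested members of 32 gene lists that passed as higher (red, to the right) or lower (blue, to the left) with DPI against non-treated, in percent, with counts at the bar ends and the number tested in brackets. Dashed lines mark the shares over all genes, 13.3% higher and 18.4% lower; respiratory, lysosomal and immediate early lists extend far to the right of theirs, and receptors and ribosome biogenesis to the left.

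Ribosome biogenesis genes, many of them known targets of MYC, fell in 20 of 48 cases and rose in 3 (median -0.38). Wdr12 went from 2470, 2220 and 2676 to 784, 924 and 1006 (2.69-fold lower), Ppan from 1633, 1435 and 1516 to 627, 789 and 623 (2.23-fold lower), and Rrp1b and Gnl3 were 2.04- and 1.75-fold lower. Cytosolic ribosomal proteins had 7 of 33 up and none down, by small steps such as 1.36-fold for Rps19 and 1.38-fold for Rps25. The median of these cytosolic ribosomal proteins, 0.27, was -0.02 under cyclic loess, and their count ran from 0 without DPI replicate 1 to 17 without DPI replicate 2, so no direction is given for them. Rpl37 and Rpl35 had log2 differences of 0.33 and 0.37.

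Genes that control entry into the cell cycle included strong changes in both directions. Cyclin D1, Ccnd1, fell from 10490, 10260 and 9710 to 2342, 2406 and 1844 (4.62-fold lower, adjusted p = 1e-10), while cyclin E2, Ccne2, rose from 1028, 1270 and 1217 to 2567, 3358 and 3153 (2.56-fold). The E2F partner Tfdp1 was 1.83-fold lower. Of 32 genes of G1 control 8 rose and 4 fell. Of 48 mitosis genes 6 rose, 11 fell and 31 did not pass (median -0.11), near the shares of all genes (13.3% and 18.4%): the kinases Aurka (1.99-fold) and Bub1 (1.69-fold) were higher, and Ccnf (2.22-fold) and the proliferation marker Mki67 (1.48-fold) were lower. Of 46 DNA replication genes 16 rose and 5 fell, with Orc6 1.65-fold, Rpa2 1.57-fold and Mcm3 1.45-fold higher and the licensing factor Cdt1 1.44-fold lower. For DNA replication the counts were 7 up and 6 down without non-treated replicate 2, and 10 up and 3 down without DPI replicate 1.

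Cytokine, chemokine and NF-kB genes had 15 of 38 up and 5 down (median 0.38). Besides Ccl3, the interferon-induced chemokine Cxcl10 rose from 36.4, 178 and 69.4 to 955, 652 and 673 (8.10-fold), and the neutrophil chemokine Cxcl2 from 287, 220 and 153 to 1134, 899 and 888 (4.31-fold). Il1b rose from 258, 230 and 265 to 439, 497 and 506 (1.86-fold, adjusted p = 0.00477). Csf1, the growth factor of macrophages, fell from 3270, 4404 and 4005 to 440, 675 and 636 (6.59-fold lower, log2 -2.72, and -1.74 as a mean over its probe sets).

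Maturation and antigen presentation genes had 7 of 32 up and 2 down. Cd83, a marker of mature dendritic cells, went from 624, 584 and 423 to 1337, 1436 and 1653 (2.69-fold). The costimulatory ligand Cd80 went from 424, 463 and 417 to 859, 678 and 1115 (1.96-fold), and the adhesion molecule Icam1 rose 1.58-fold. Cd86 read 2397, 3482 and 2742 against 1934, 2337 and 2474, with overlapping groups (log2 -0.34 ± 0.16, adjusted p = 0.115). Another probe set of Cd86, of lower signal, did pass as lower (log2 -1.13, adjusted p = 1.91e-05), as did the mean over both (log2 -0.73), so the call for Cd86 depends on the probe set. Cd40 had a log2 difference of 0.21 ± 0.139 (adjusted p = 0.275) that passed without DPI replicate 1 (log2 0.38). Ciita, the switch of MHC class II transcription, fell from 797, 715 and 793 to 261, 184 and 186 (3.51-fold lower), although the class II genes H2-Aa and Cd74 themselves did not pass. Of 37 interferon-stimulated genes 4 rose and 4 fell, shares below those over all genes; Irf1 (1.61-fold), Ifi47 (1.97-fold) and Tap1 (1.54-fold) were lower. With the replicate number as a block 14 interferon-stimulated genes rose and 5 fell. Without non-treated replicate 3 the counts were 1 up and 4 down, and without DPI replicate 1 they were 2 up and 3 down. Tap1 did not pass without DPI replicate 3 (log2 -0.50).

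In heme and iron metabolism 9 of 27 fell and 2 rose. The risers were Ncoa4, the receptor that brings ferritin to the lysosome, from 2050, 2049 and 2162 to 6820, 5603 and 6569 (3.01-fold), and the mitochondrial carrier Slc25a39 (1.45-fold). The heme transporter Slc48a1 and ferrochelatase Fech were 1.62- and 1.54-fold lower, and without DPI replicate 1 the list had 5 down. Amino acid transporters rose in 6 of 22 cases and fell in 3; Slc38a2 was 2.09-fold and Slc1a4 2.23-fold higher and Slc43a2 2.63-fold lower. Splicing factors rose in 10 of 44 cases and fell in 6, with Prpf38a 1.71-fold, Snrpd3 1.69-fold and Hnrnpa1 1.48-fold higher and Sf3b3 1.5-fold lower. Quantile normalization gave 7 splicing factors up and 8 down. Slc38a2, Prpf38a, Snrpd3 and Hnrnpa1 each had another probe set of opposite sign that did not pass.

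DPI was next set directly against the other single treatments. The fold changes do not use the non-treated arrays, but the spread behind the p-values was estimated from all 15 arrays. Agent, dose and time cannot be told apart here, since doses and times are not given. Against H2O2 2266 genes were higher with DPI and 2032 lower, 33.8% of those tested. Against DNFB 2381 were higher and 2388 lower, 37.5%. Both comparisons use the same 3 DPI arrays.

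Mitosis and DNA replication genes were mostly higher with DPI than with either other agent. Of 48 mitosis genes 44 were higher with DPI than with H2O2 and none lower, and 38 were higher than with DNFB and 1 lower; 17.8% and 18.7% of all genes were higher. DNA replication genes were higher in 35 of 46 cases against H2O2 and in 34 against DNFB. Esco2, which joins sister chromatids, read 518, 546 and 553 without treatment, 508, 827 and 775 with DPI, and 77.6, 131 and 116 with H2O2 (5.81-fold higher with DPI than with H2O2). Against DNFB 30 of 34 complex I genes and 33 of 37 genes of complexes II to V were higher with DPI. Myb, a factor of immature blood cells, read 224, 271 and 303 with DPI, 224, 155 and 277 without treatment and 4.7, 7.5 and 16.5 with DNFB.

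Oxidant response, cytokine and ribosome production genes differed between the comparisons. Against DNFB 18 of 32 NRF2 and glutathione genes were lower and 6 higher (median -0.68), and against H2O2 12 were lower and 4 higher (median -0.01). Over all genes 18.8% were lower and 18.7% higher than with DNFB, and 16% and 17.8% than with H2O2. Srxn1 was 35.1-fold lower than with DNFB and 10.5-fold lower than with H2O2. Cytokine genes were lower in 23 of 38 cases against H2O2 and in 19 against DNFB. Ribosome biogenesis genes were lower in 28 of 48 cases against H2O2 and in none higher, while against DNFB 11 were higher and 12 lower (median -0.04). The long pentraxin Ptx3 was 14.1-fold lower than with H2O2, and the immune checkpoint receptor Havcr2 (TIM-3) was 14.7-fold lower than with H2O2 and 32.7-fold lower than with DNFB. Havcr2 read 489, 668 and 507 without treatment, so with DPI, at 56.7, 124 and 162, it lay on the other side of the control.

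The remaining genes with the largest gaps were of mixed kinds. Fgd4 (8.06-fold), Flrt2 (6.88-fold), Mex3b (6.01-fold), Sp4 (5.84-fold) and Sgk1 (5.51-fold) were higher with DPI than with H2O2, and Fam167a (18-fold), A4galt (13-fold) and Il10ra (9.87-fold) were lower. Egr2 (12.3-fold), Frat2 (9.57-fold), Cmya5 (8.36-fold), Egr1 (8.11-fold) and Fos (7.61-fold) were higher with DPI than with DNFB, and the macrophage elastase Mmp12 (37.5-fold), Fam167a (37.4-fold), Neat1 (28.0-fold) and the adaptor Traf1 (22.5-fold) were lower. Without treatment Mmp12 read 193, 246 and 265, with DPI 129, 180 and 175, and with DNFB 6980, 5439 and 7351. Traf1 read 202, 280 and 195 without treatment, 157, 204 and 149 with DPI, and 4797, 3891 and 3743 with DNFB. Fam167a was dim without treatment (55.2, 64.9 and 13.1) and with DPI (24.4, 42.0 and 7.9), and read 1509, 1516 and 1141 with DNFB. Neat1, which fell with DPI, read 1606, 1582 and 1392 with DNFB. Flrt2 was dim with H2O2, at 19.4, 19.0 and 16.8, and its difference was 0.82 in place of 2.78 with a pseudocount of 1, where it did not pass.

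**Figure D4:**
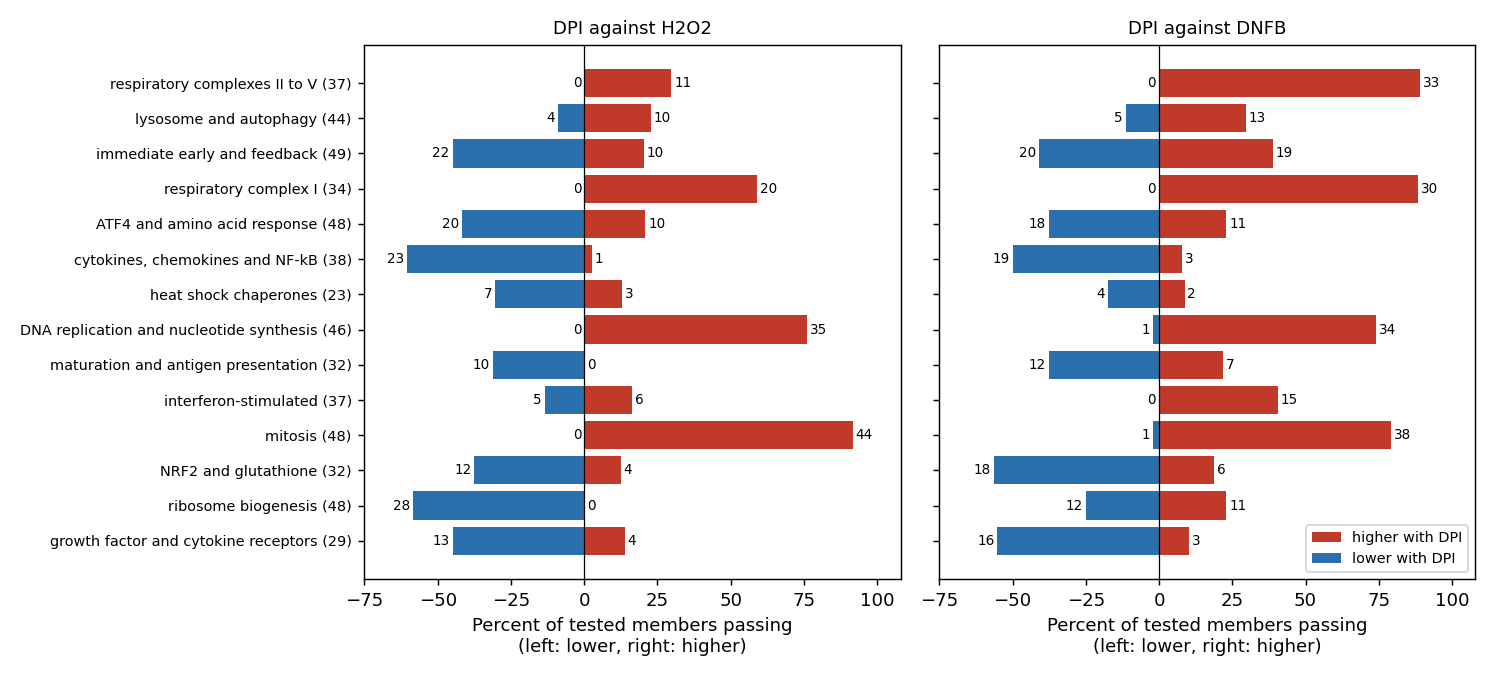
Share of tested members (percent, with counts at the bar ends and numbers tested in brackets) that were higher (red) or lower (blue) with DPI than with H2O2 (left panel) and with DNFB (right panel), for 14 gene lists. Mitosis and DNA replication extend to the right in both panels, cytokines to the left in both, and NRF2 genes furthest to the left against DNFB.

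The arrays of DPI with DNFB and of DNFB alone give a second measurement of the DPI effect, whose group means share no array with the first. The spread of each gene was estimated from all 15 arrays for both measurements, so passing in one is not independent of passing in the other. In this second comparison 2911 genes were higher with DPI and 2706 lower, 44.2% of those tested. The DPI + DNFB arrays had beta-actin ratios of 2.07, 1.5 and 2.29, above the DPI arrays, and with that ratio as a covariate 2987 genes passed in place of 5617. Centring each array on its median gave 1617 higher and 3812 lower, so the balance of directions in this second comparison depends on the scaling. Of the 1694 genes that rose with DPI alone, 1065 (62.9%) had the same sign in the presence of DNFB and 702 (41.4%) passed in that direction, against 55.6% and 22.9% of all genes. Another 326 (19.2%) passed in the opposite direction. Of the 2341 that fell, 1598 (68.3%) had the same sign and 1041 (44.5%) passed, against 44.4% and 21.3% of all genes, and 334 (14.3%) passed the other way.

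The difference between the effects of DPI with and without DNFB, tested as an interaction, passed for 2195 genes in the positive and 1750 in the negative direction, 31.1% in all (1099 and 2410 with arrays centred on their median). Egr2 and Csf2rb fall in the group whose change was seen both times. Egr2 rose from 68.3, 123 and 123 with DNFB to 1080, 1023 and 1259 with both agents, by less than without DNFB (interaction -0.86, adjusted p = 0.0369). Sgk1 read 1045, 1008 and 736 with DNFB and 1094, 1163 and 1001 with both. That difference did not pass (log2 0.235 ± 0.232, adjusted p = 0.437), while without DNFB Sgk1 rose (interaction -4.06 ± 0.328, adjusted p = 3.33e-08). Srxn1 read 14527, 13620 and 13680 with DNFB and 341, 367 and 383 with both, and Hmox1, which did not pass with DPI alone, had an interaction of -3.84.

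**Figure D5:**
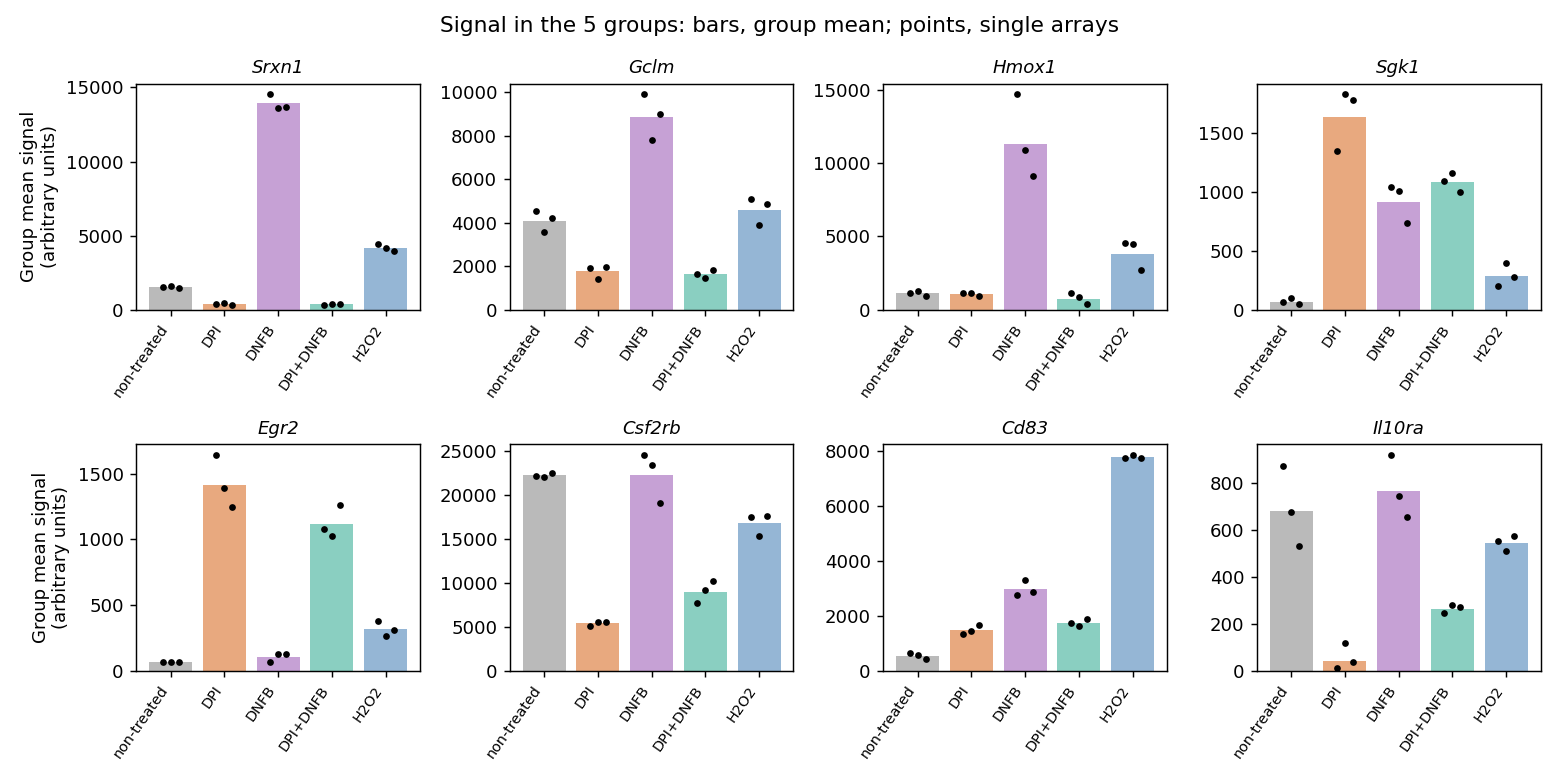
Signal (arbitrary units, linear axis from 0) of 8 genes in the 5 groups; bars are group means and points are the 3 arrays of each group. Srxn1 and Gclm are lower with DPI than without treatment and low again with DPI + DNFB, Hmox1 is highest with DNFB, Sgk1 is lowest without treatment and highest with DPI, and Csf2rb and Il10ra are low in both groups with DPI.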

How the data were processed

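Total RNA was measured on 15 arrays (5 groups of 3), each with 45101 probe sets. TRIzol and an RNeasy kit were used to extract it, and the 3' IVT Express kit to label it, per the labels' protocols. Each probe set has 1 deposited intensity on a linear scale, made with MAS5 in Affymetrix Expression Console per the submitters' processing notes, with no versions given. Their scaling targets of 250 and 500 can be read from the 2% trimmed means, and each array was rescaled to 500. The number of arrays limits the precision.

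The 64 control probe sets were left out. Of the other 45037, 34945 had 1 gene symbol, 932 several and 9160 none in the platform annotation, which can be old, and 34741 were updated through a RefSeq gene table (GRCm38.p6, used for names, spans and promoters). After log2(signal + 15), where 16.6% of values lay at or below 15, probe sets at or above the 40th percentile of mean log2 signal (6.22) were kept (27022). The brightest represented each of 12701 genes. Group means over all 15 arrays were fitted with limma 3.58.1 in R 4.3.3 (lmFit, eBayes with trend), with 10 residual degrees of freedom. Replicate arrays of both groups correlated across genes, and no pair held identical values. Group signals are geometric means.

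Named genes were the 12 largest rises and falls that passed without overlap, up to 4 members with the smallest adjusted p from each list with at least 3 that passed, 19 genes fixed by name, and for the other comparisons the 6 largest (interaction: 5) each way. The members and lists were chosen with earlier results of these data known. Alternatives covered pseudocount, filter, normalization, probe set choice, variance model, replicate block, scaling target and left-out arrays. The steps were tested on simulated data with far fewer changed genes than passed here, where 6 of 120 calls were false. Of 170 named genes 94 had another kept probe set, and 11 that passed had another of opposite sign, in no case with that other probe set passing.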

Additional observations from a re-analysis of the deposited data

Results flagged for a closer look

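For 24 genes the effect of DPI differed with and without DNFB, as tested by the interaction (limma, adjusted p below 0.05). These were 14 of the 19 genes named whatever their values and the 5 largest differences in each direction among genes that also passed with DPI alone. Values are the log2 effect of DPI in the presence of DNFB minus its effect in the absence of DNFB, and 31.1% of all genes passed this test.

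Among oxidant response genes the difference was -3.84 for Hmox1, -3.24 for Srxn1, -2.82 for Sqstm1 and -1.22 for Gclm. In Hmox1 DPI alone made no difference that passed, and with DNFB its signal was 9082 to 14672 without DPI and 403 to 1157 with it. Subunits of the NADPH oxidase differed the other way, with 0.64 for Cyba, 0.89 for Ncf1 and 0.45 for Ncf4, and Txnip had 1.39. Sgk1 had -4.06.

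Of the maturation genes Cd80 had -3.23, Cd83 -2.19, Cd86 -0.70, Cd40 -0.62 and Il1b -0.89. The 5 largest negative differences were those of the chemokine Cxcl3 (-5.34), the sphingomyelin synthase Sgms2 (-4.58), Crisp3 (-4.52), the cytokine subunit Il23a (-4.29) and the elastase Mmp12 (-4.12). Some of these rest on signals near the pseudocount of 15. Sgms2 read 5.4, 67.9 and 10.2 without treatment and 63.1, 73.5 and 5.3 with both agents, and Il23a 20.0, 20.6 and 20.9 without treatment. Cxcl3 rose with DPI alone, from 29.5, 41.4 and 38.6 to 106, 171 and 103, and read 1795, 834 and 1032 with DNFB against 73.5, 55.7 and 61.7 with both. The 5 largest positive differences were those of the potassium channel subunit Kcne3 (4.23), Tmem119 (4.16), Tifab (3.83), the fucosyltransferase Fut7 (3.71) and the corepressor Cbfa2t3 (3.43). Kcne3 was dim with DNFB, at 52.0, 8.5 and 43.2. Tmem119 fell with DPI alone, from 2427, 1971 and 1775 to 466, 605 and 508, and read 312, 234 and 271 with DNFB against 1294, 1181 and 1522 with both. The beta-actin 3'/5' ratio was 1.5 to 2.29 on the DPI + DNFB arrays and 1.19 to 1.53 on the other 12, and with that ratio as a covariate 2552 genes passed the interaction in place of 3945. Its part in these differences was not tested.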

How the results depend on the processing

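The count of genes that passed in DPI against non-treated, 4035, stayed within 1.5 times under 16 of 22 alternatives other than leaving out single arrays. It fell to 214 on the values as deposited, in which both groups mix scaling targets, and was 2558 within the arrays scaled to 500, 2326 within those scaled to 250, 2678 at an adjusted p below 0.01, 1180 when a 2-fold change was also required, and 6703 when every kept probe set was tested. In the same order the counts that moved by more than 1.5 times were 226, 2602, 1292 and 7325 for DPI against H2O2 (as deposited, arrays at 250, 2-fold, every probe set) and 436, 2447, 1500 and 8233 for DPI against DNFB (as deposited, arrays at 500, 2-fold, every probe set). For DPI + DNFB against DNFB they were 829 as deposited, with 658 up and 171 down, 3476 in the arrays at 500, 2083 with 2-fold, 10121 with every probe set and 2987 with the beta-actin ratio. For the interaction they were 137 as deposited, with 97 up and 40 down, 2265 in the arrays at 500, 2264 in those at 250, 2608 at an adjusted p below 0.01, 2016 with 2-fold, 6417 with every probe set and 2552 with the beta-actin ratio. As deposited, DPI against H2O2 had 85 up and 141 down and DPI against DNFB 276 up and 160 down. The cause of these moves was not tested beyond what each alternative changes. The arrays scaled to 250 and the beta-actin covariate were added after the data were seen.

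Leaving out single arrays gave 3264 to 3628 genes for DPI against non-treated, 3628 to 3889 against H2O2, 4078 to 4402 against DNFB, 4902 to 5652 for DPI + DNFB against DNFB and 3483 to 4175 for the interaction. Differences near 0 changed sign in Hmox1 (0.017 under quantile normalization, and -0.183 to 0.062 with single arrays left out), Ncf1 (0.076 in the arrays at 250, and -0.164 to 0.049 with single arrays left out) and Cd40 (-0.30 in the arrays at 250). Prpf38a went to -0.022 as a mean over its probe sets, and Uqcrq, Ogdh, Selenow, St13, Mdm4, Rpl35, Hnrnpa1 and Sf3b3 did not pass under that choice.

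The replicate numbers were checked as a pairing. Deviations from the group means of same-numbered arrays correlated with r of 0.133, 0.097 and -0.003 across genes, and 1 of them is above 0.1. Arrays of different numbers gave r of -0.138 to 0.048. The main fit did not take the numbers as a pairing, and whether same-numbered arrays belong together is not stated. Replicate 1 of both groups also shares the scaling target of 250, and replicates 2 and 3 that of 500, with 4253 genes passing when the target was a block. With the replicate block more genes passed in each comparison. The count was 4429 in place of 4035 for DPI against non-treated. It was 5951 in place of 5617 for DPI + DNFB against DNFB and 4334 in place of 3945 for the interaction.

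With 3 arrays a group the median standard error was 0.197, and in 1 simulated set for DPI against non-treated (12701 genes) the fit found 24% of log2 changes of 0.5, 56% of 1 and 92% of 2. That set held 50, 100 and 50 changed genes of these sizes, far fewer than passed in the data. The adjusted p is stricter when few genes change, so these shares do not carry over to the data. Small changes of single genes can be missed at this precision, and genes that did not pass are not shown to be unchanged. Signals near the pseudocount give no reliable fold.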

Other observations

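Several families were grouped by symbol after the values were seen and were not tested as sets. Of 256 tested zinc finger genes of the Zfp series, 85 fell (33.2%) and 17 rose (6.64%), with a median of -0.41 on the log2 scale, against 18.4% and 13.3% of all genes and a median of -0.007. Zfp799, at 421, 456 and 503 without treatment and 28.8, 54.7 and 37.6 with DPI, was one of them. Of 12 host genes of small nucleolar RNAs (Snhg genes and Gas5) 6 rose and 2 fell. Proteasome subunits rose in 10 of 43 cases and fell in 5, initiation factors of translation rose in 13 of 45 and fell in 7, and Rab GTPases, which steer vesicle traffic, rose in 13 of 63 and fell in 15.

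The median span of the gene on the chromosome was 21147 bases for the 1694 genes that rose, 21811 for those that fell and 21971 for all tested genes with a span in the RefSeq table. It was 19799 for genes at least 2-fold higher and 17178 for those at least 2-fold lower.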
